A study of Homo sapiens with 12 samples.

Results

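The genes described are 8 noncoding RNAs of the polymerase III and ribosomal DNA (rDNA) classes, of the 60675 gene IDs in the count table of HT29 cells, a human colorectal adenocarcinoma cell line. They are RN7SL1, RN7SL2 and RN7SL3 (the RNA of the signal recognition particle), RN7SK (7SK RNA), RMRP (the RNA of RNase MRP), RPPH1 (the RNA of RNase P), and ENSG00000280614 and ENSG00000281181, which are annotated in the rDNA repeats of chromosome 21. They were chosen by name and by how their levels split vehicle from extract in these same libraries. Their levels, fold changes and overlaps are therefore descriptions, and no test is given for them. All 8 were found: 5 by symbol, both rDNA genes by ID, and RN7SK as the ID named 7SK at the same locus.

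Each of the 4 groups had 3 libraries, all from cells harvested after 24 h. One group had vehicle, which was PBS with 2% DMSO, and the others a water extract of Aconitum carmichaeli Debeaux (ACD), the low dose being 20 µg/mL, the medium dose 100 µg/mL and the high dose 500 µg/mL. The paper states that the extract stock was also made up in PBS with 2% DMSO. Extract was then added to wells that held growth medium, so 2% is the content of the stock and not of the medium. All doses were compared with the same 3 vehicle libraries. The titles and treatment field name ACD, whereas a longer treatment note describes Poria cocos. The libraries were grouped by the former. Total RNA with an RNA integrity number above the authors' minimum went into a directional mRNA library kit. Nothing in the labels says whether the 3 libraries of a group came from separate cultures, so every spread below is that between libraries. The codes of the vehicle libraries begin with 1 and those of all extract libraries with 2. What this number stands for is not stated, and any difference in handling along it cannot be told apart from vehicle against extract.

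RNA polymerase III makes short structured RNAs and stops at a run of T in the coding strand. 7SL RNA is the scaffold of the signal recognition particle, which takes ribosomes that make secreted and membrane proteins to the endoplasmic reticulum. 7SK RNA holds the elongation factor P-TEFb (CDK9 with a cyclin T) in an inactive complex. RMRP and RPPH1 are the RNA parts of nucleases that cut precursor rRNA and precursor tRNA. RNA polymerase I makes the 45S precursor from the rDNA repeats, which is cut to 18S, 5.8S and 28S rRNA. Mature forms of all these RNAs lack a poly(A) tail, so the counts in an mRNA library give what entered the library and not the amount in the cell. In bulk samples, fewer cells that make an RNA and less RNA per cell cannot be told apart either.

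The RN7SL genes lie near each other on chromosome 14 (GRCh38). RN7SL1 is at chr14:49586580-49586878 on the plus strand, RN7SL2 at chr14:49862550-49862849 and RN7SL3 at chr14:49853616-49853914, both on the minus strand. RN7SL1 and RN7SL2 were 98.33% identical, with 4 substitutions and 1 gap base, and RN7SL1 and RN7SL3 were 97.66% identical, with 7 substitutions and no gap. Reads of the copies can therefore hardly be told apart, which limits how far the values of one copy can be read.

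The following sequences show the 3′ ends of RN7SK, RMRP and RPPH1, the last 30 bases of the annotated gene and the 20 that follow (coding strand, GRCh38), with the T run in capitals. They are shown because the T run is what the 6 polymerase III members share and the rDNA members do not. The windows are chr6:52995921-52995970 for RN7SK, chr9:35657734-35657783 for RMRP and chr14:20343055-20343104 for RPPH1.
RN7SK: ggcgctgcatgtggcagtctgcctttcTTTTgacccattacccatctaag
RMRP: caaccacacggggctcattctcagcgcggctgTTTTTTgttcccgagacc
RPPH1: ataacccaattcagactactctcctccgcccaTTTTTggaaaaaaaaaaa

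In a window of the last 5 bases of the gene and the 20 after it, read on the coding strand, TTTT was present at all 6 polymerase III members, with runs of 4 to 6 T. It was absent from this window at both rDNA members. Of 7916 genes of the table on chromosomes 6, 9, 14 and 21, 22.4% had TTTT in the same window. No member had a run of more than 4 A in its sequence.

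The rDNA members are at chr21:8393419-8394341 (ENSG00000280614) and chr21:8437629-8438551 (ENSG00000281181), and both are annotated as lncRNAs of 923 bases on the minus strand. RefSeq places the rRNA genes of the repeats on the plus strand, and both IDs lie within an 18S gene of 1869 bases, from position 754 to 1676 of it. They are the antisense of the 18S rRNA sequence over that stretch. The directional kit marks strand, but the strand setting of the counting is not stated, so reads of 18S rRNA and of an antisense RNA cannot be told apart. The first 150 bases of ENSG00000280614, at chr21:8394192-8394341 on the minus strand, are shown so that the match to 18S rRNA can be checked.
ENSG00000280614: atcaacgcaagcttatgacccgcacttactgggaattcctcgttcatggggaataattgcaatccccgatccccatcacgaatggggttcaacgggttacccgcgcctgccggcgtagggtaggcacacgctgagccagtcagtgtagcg

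ENSG00000280614, ENSG00000281181 and another ID that is not a member, ENSG00000280800 (chr21:8210384-8211306), had 100.0% identity over all 923 bases. A further copy, ENSG00000281383, was 99.57% identical, with 2 substitutions and 2 gap bases.

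Libraries held between 15941255 and 33866644 expected counts. Epithelial markers were present in all libraries (EPCAM at a mean of 529 and KRT8 at 6374 CPM), whereas PTPRC, CD3E, COL1A2, DCN and ALB were at or near 0. Of the markers of other cell types, LYZ stood out with a mean of 1565 CPM. Library 2-2-1 (high-dose replicate 2) had the lowest total, and its values are given apart where they move a result. The 8 members held 0.189% to 0.205% of all counts in the vehicle libraries and 0.0221% to 0.0592% in the extract libraries.

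The members were checked for 3 patterns by the values in all 12 libraries (CPM, the expected counts relative to the library total, scaled by the TMM method). A member could show several of these patterns or none. Vehicle was apart from every dose for 6 of the 8 members. RN7SL1, RN7SL2 and RN7SL3 were higher in all 9 extract libraries than in any vehicle library, and RN7SK, ENSG00000280614 and ENSG00000281181 were lower in all 9. Among the 15374 genes tested, 2.59% had all 9 above vehicle and 2.92% had all 9 below, and nothing is read from the comparison since the members were chosen for it. Dose by dose, 3 members lay wholly above vehicle each time, where the background was 11.4% of tested genes at 20 µg/mL, 14.6% at 100 µg/mL and 10.5% at 500 µg/mL. Below vehicle lay 3, 4 and 3 members, RPPH1 being the added one at 100 µg/mL, against 9.61%, 14.1% and 11.5% of tested genes. RMRP and RPPH1 were not separated across all doses. No member followed dose, defined as group means that run one way from vehicle to the high dose with high-dose libraries clear of the low-dose libraries. The background of that pattern was 3.21% of tested genes rising and 2.78% falling. Library 2-2-1 moved the mean log2 CPM of the high dose by over log2(1.5) for RN7SL1, RN7SL2 and RMRP, a pattern held by 2.26% of tested genes.

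**Figure D1:**
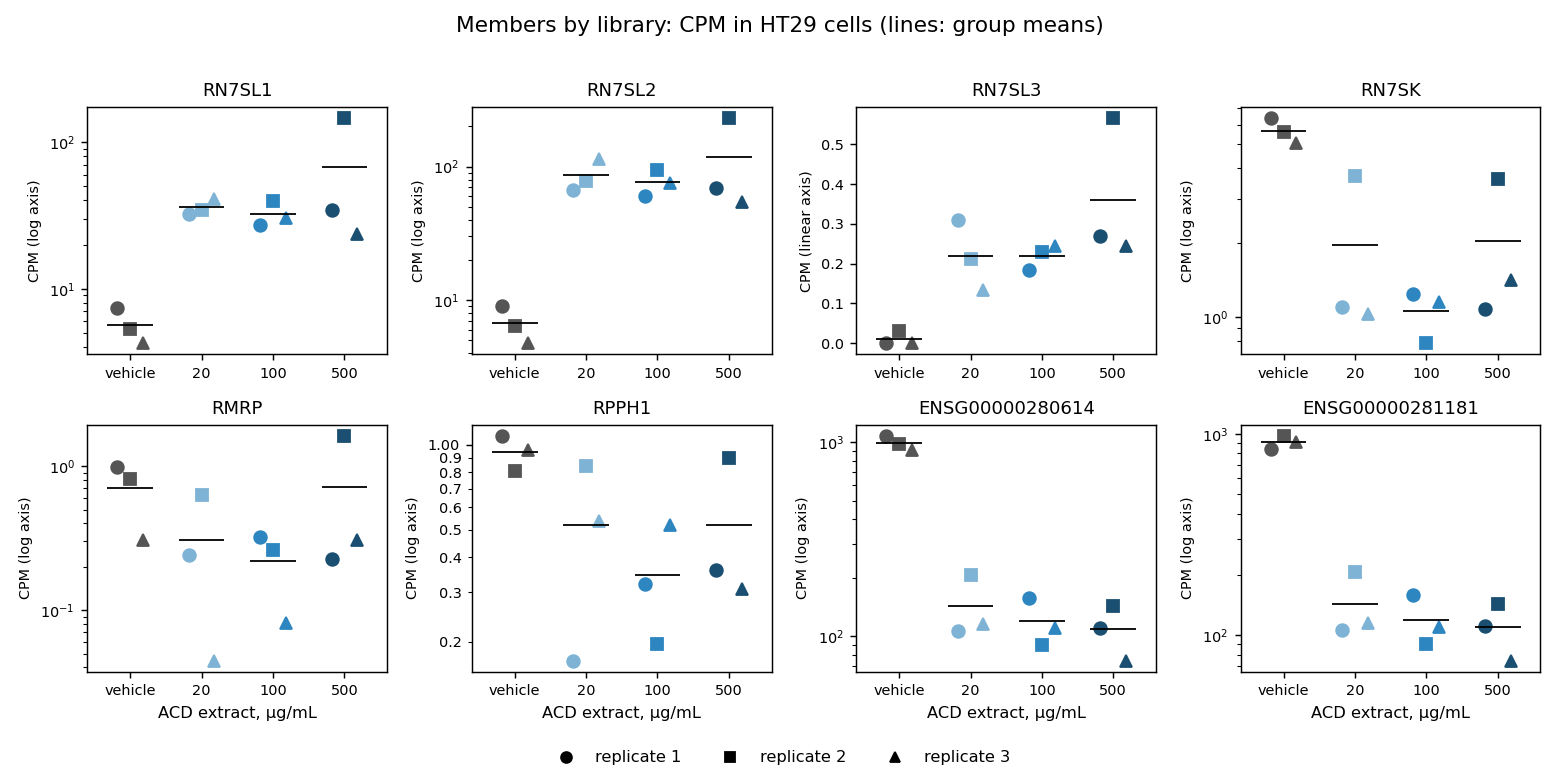
CPM of the 8 members in each of 12 libraries, by group on the x axis (vehicle and extract dose in µg/mL), with 3 libraries per group marked by replicate number and lines at the group means. The y axes are logarithmic except for RN7SL3. All 9 extract libraries lie above vehicle for the 3 RN7SL genes and below it for RN7SK and both rDNA genes, and high-dose replicate 2 (square) is the highest library for the RN7SL genes and RMRP.

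RN7SL2 had the highest level of the 7SL copies. It was at 9.09, 6.37 and 4.78 CPM in the vehicle libraries (165, 210 and 109 expected counts). The low-dose libraries were at 67.2, 77.9 and 114 CPM, the medium-dose ones at 60.1, 94.4 and 74.9 CPM, and the high-dose ones at 69.3, 230 and 54.3 CPM. The lowest extract library lay 5.98-fold above the highest vehicle library, and 8 of the 9 extract libraries shared 1 range regardless of dose, with high-dose replicate 2 above them. Against vehicle, the log2 fold change of RN7SL2 was 3.70 (SE 0.52), 3.52 (SE 0.52) and 4.13 (SE 0.53) with rising dose. Without high-dose replicate 2, the high-dose value was 3.22.

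RN7SL1 showed the same separation at a lower level. It was at 7.41, 5.29 and 4.27 CPM in vehicle. Its low-dose libraries had 32.6, 34.7 and 40.9 CPM, its medium-dose libraries 27.2, 39.5 and 30.4 CPM, and its high-dose libraries 34.7, 145 and 23.5 CPM. High-dose replicate 2 was 5.00-fold above the mean of the other high-dose libraries, and those 2 libraries lay within the range of the lower doses or just below it. For RN7SL1 the log2 fold change was 2.69 (SE 0.58), 2.54 (SE 0.58) and 3.58 (SE 0.59) from the low to the high dose, and 2.38 at the high dose without replicate 2.

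RN7SL3 had 1 expected count in the 3 vehicle libraries together and 57 in the 9 extract libraries, with 3 to 9 in each of these. It was too low to pass the filter, so it has no fitted fold change.

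The table also held 677 RN7SL pseudogenes, of which 170 had a count. The highest were RN7SL832P with 201 counts over all libraries, and RN7SL199P and RN7SL656P with 37.3 each. RN7SL832P had more counts in the vehicle libraries (82.9) than at any dose (37.9 to 41.1). Together the pseudogenes were at 4.10 to 5.87 CPM in vehicle and at 2.02 to 3.25 CPM in the extract libraries, which did not overlap. They took 26.3% to 32.1% of the family's counts in vehicle and 0.86% to 3.40% with extract. When all RN7SL genes and pseudogenes were summed, the log2 fold change was 2.84 (SE 0.50), 2.68 (SE 0.50) and 3.43 (SE 0.51) from the low to the high dose, and the last was 2.43 (SE 0.30) without high-dose replicate 2. The family sum, which does not depend on how reads were divided among these IDs, was thus also higher than vehicle at each dose. Reads placed outside these IDs were not examined. RN7SL1 lies within the span of RPS29 on the opposite strand. RPS29 was at 87.6 ± 26.1 CPM in vehicle, 57.3 ± 14.7 in low-dose, 49.6 ± 5.92 in medium-dose and 89.7 ± 75.0 in high-dose libraries (SD, n = 3 each).

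RN7SK (ENSG00000202198, chr6:52995620-52995950, plus strand) moved the opposite way to the 7SL genes. It was at 6.38, 5.60 and 5.05 CPM in vehicle (116, 185 and 115 counts). In the low-dose libraries it was at 1.10, 3.73 and 1.03 CPM, in the medium-dose ones at 1.24, 0.783 and 1.15 CPM, and in the high-dose ones at 1.08, 3.61 and 1.41 CPM. The extract libraries were low in 7 of 9 cases, and low-dose replicate 2 and high-dose replicate 2 lay between these and vehicle. The lowest vehicle library was 1.35-fold above the highest extract library, the narrowest gap among the 6 separated members. Relative to vehicle, the log2 fold change of RN7SK was −1.51 (SE 0.45), −2.44 (SE 0.49) and −1.59 (SE 0.47) from the low to the high dose. With single libraries left out, the low-dose value ran from −2.40 (without low-dose replicate 2) to −1.21 (without low-dose replicate 1), and the high-dose value from −2.15 (without high-dose replicate 2) to −1.295 (without high-dose replicate 1). The 293 RN7SK pseudogenes had 49 IDs with a count. In sum they were at 1.33 to 1.50 CPM in vehicle and at 0.884 to 1.44 CPM with extract, and these ranges overlapped. The highest were RN7SKP23 with 69.0, RN7SKP16 with 63.0 and RN7SKP239 with 23.0 counts over 12 libraries.

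RPPH1 (ENSG00000277209, chr14:20343075-20343407, minus strand) came closest to the separation without reaching it. It was at 1.08, 0.807 and 0.956 CPM in vehicle, from 20 to 27 counts per library. Low-dose libraries gave 0.172, 0.845 and 0.537 CPM, medium-dose libraries 0.321, 0.196 and 0.521 CPM, and high-dose libraries 0.360, 0.896 and 0.307 CPM. The medium-dose libraries were all below vehicle, and 1 library of each of the other doses reached into the vehicle range. For RPPH1 the log2 fold change was −0.87 (SE 0.49), −1.46 (SE 0.53) and −0.998 (SE 0.52) with rising dose. With single libraries left out, the first of these ran from −1.48 (without low-dose replicate 2) to −0.44 (without low-dose replicate 1), and the last from −1.50 to −0.66 (without high-dose replicates 2 and 3). An overlapping lncRNA on the same strand, ENSG00000259001, held 6.6 counts in all libraries together.

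RMRP (ENSG00000277027, chr9:35657754-35658017, minus strand) had 1 to 27 counts per library, the least of the fitted members. It was at 0.990, 0.818 and 0.308 CPM in vehicle, and at 0.240, 0.634 and 0.0447 CPM in the low-dose libraries. Medium-dose libraries had 0.321, 0.261 and 0.0818 CPM and high-dose libraries 0.225, 1.63 and 0.307 CPM. The groups overlapped at each dose, and the highest library of all was high-dose replicate 2. Its log2 fold change was −1.12 (SE 0.79), −1.64 (SE 0.85) and −0.21 (SE 0.75) with rising dose. With single libraries left out, the first ran from −2.16 (without low-dose replicate 2) to −0.68 (without low-dose replicate 3), and the last from −1.35 (without high-dose replicate 2) to 0.25 (without high-dose replicate 3).

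ENSG00000280614 had the highest level of the members. It was at 1079, 977 and 909 CPM in vehicle (19625, 32276 and 20709 expected counts). The low-dose libraries had 107, 206 and 115 CPM, the medium-dose ones 158, 90.1 and 110 CPM, and the high-dose ones 111, 143 and 74.9 CPM. The lowest vehicle library was 4.42-fold above the highest extract library, and the doses overlapped each other. Its log2 fold change was −2.80 (SE 0.30), −3.05 (SE 0.30) and −3.18 (SE 0.30) with rising dose. ENSG00000281181 had the same values in all but 1 library, vehicle replicate 1, where it was at 842 CPM, and its log2 fold changes were −2.67, −2.93 and −3.06.

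The copies of this rDNA gene did not share reads evenly, and this changes what the high dose shows. ENSG00000280800, of the same sequence, was at 842, 1113 and 909 CPM in vehicle. Low-dose libraries had 107, 206 and 115 CPM of it, medium-dose libraries 58.8, 90.1 and 110 CPM, and high-dose libraries 111, 615 and 187 CPM. It took 33.3% of the counts of the copies in 7 libraries, 30.5% and 36.3% in vehicle replicates 1 and 2, 15.7% in medium-dose replicate 1, 68.2% in high-dose replicate 2 and 55.4% in high-dose replicate 3. Since the sequences are identical, the reads of 1 copy were not told apart from those of the others, and the sum is the better measure. The 4 copies summed were at 2763, 3069 and 2728 CPM in vehicle. Their sum was 320, 617 and 345 CPM in low-dose, 375, 270 and 331 CPM in medium-dose, and 332, 902 and 338 CPM in high-dose libraries. Vehicle stayed apart, with its lowest library 3.03-fold above the highest extract library, but that highest library was now high-dose replicate 2. For the sum, the log2 fold change was −2.74 (SE 0.37), −3.13 (SE 0.38) and −2.45 (SE 0.37) with rising dose. Without high-dose replicate 2, the last was −3.09 (SE 0.32). The steady fall with dose of the group means of ENSG00000280614 was not present in the sum, with or without that library.

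**Figure D2:**
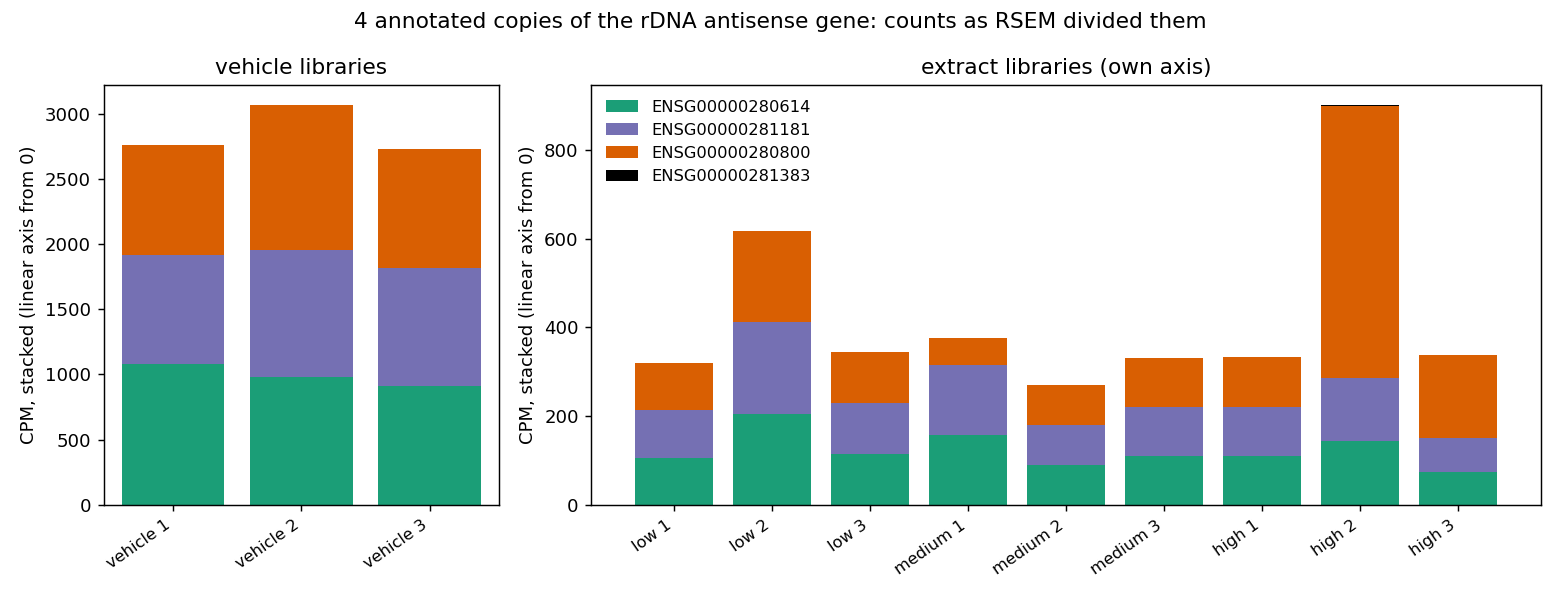
Stacked CPM of the 4 annotated copies of the rDNA gene in the 3 vehicle libraries (left) and the 9 extract libraries (right, with its own linear axis from 0). The vehicle stacks reach 2728 to 3069 CPM and the extract stacks 270 to 902 CPM, and in high-dose replicate 2 most of the stack is ENSG00000280800.

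Of 21 IDs within 200 kb of the rDNA members, themselves included, 11 had a count, and those outside the 4 copies had few. ENSG00000281383, the copy that differs in sequence, was at 0.827 ± 0.269 CPM in vehicle and at most 0.716 ± 0.831 CPM in the mean of a dose (SD, n = 3 each). The sense lncRNAs ENSG00000278996 and ENSG00000280441, which span rDNA repeats on the plus strand and had equal values, were at 3.53 ± 0.477 CPM in vehicle and at 2.83 ± 0.0434, 2.78 ± 0.0744 and 2.71 ± 0.420 CPM from the low to the high dose (SD, n = 3 each). Each 5.8S rRNA ID there (RNA5-8SN1, RNA5-8SN2, RNA5-8SN3 and ENSG00000277739) had 8.1 counts over all 12 libraries, and MIR3648-1 had 0.5.

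**Figure D3:**
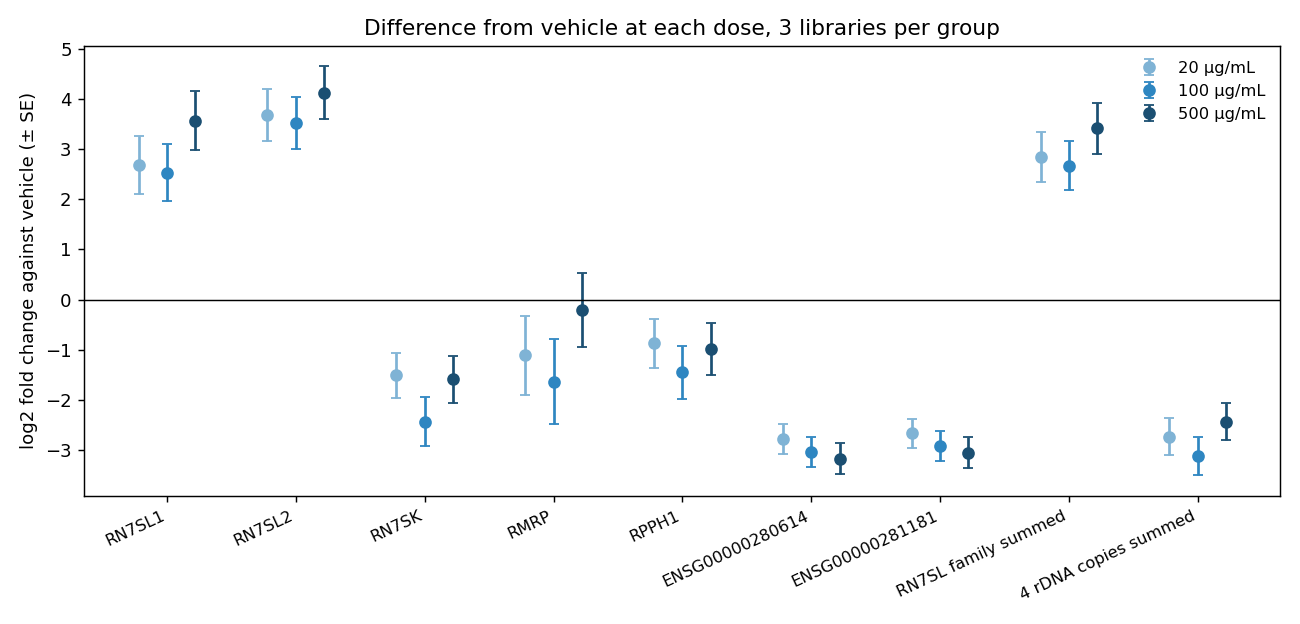
Log2 fold change against vehicle with its standard error at 20, 100 and 500 µg/mL for the 7 fitted members, for all RN7SL genes and pseudogenes summed and for the 4 rDNA copies summed (3 libraries per group). The RN7SL genes lie between 2.54 and 4.13 and the rDNA members between −3.18 and −2.67 at all doses, while the bar of RMRP at 500 µg/mL crosses 0.

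From the low to the high dose, RN7SL1 differed by 0.89 (SE 0.51) and RN7SL2 by 0.44 (SE 0.44) on the log2 scale, RN7SK by −0.08 (SE 0.50) and RPPH1 by −0.13 (SE 0.55). ENSG00000280614 differed by −0.38 (SE 0.28) and RMRP by 0.91 (SE 0.83). For the 4 rDNA copies summed, the log2 fold change against vehicle was −2.74 at the low dose and −2.45 at the high dose. The latter was −3.09 without high-dose replicate 2, so the direction of the sum between these doses turned on that library. Without high-dose replicate 2, the log2 fold change of RN7SL1 against vehicle was 2.70 at the low dose and 2.38 at the high dose. In the same fit it was 3.71 and 3.22 for RN7SL2, and −1.11 and −1.35 for RMRP. The rises of RN7SL1, RN7SL2 and RMRP from the low to the high dose were thus not present without that library. From the medium to the high dose, RN7SL1 differed by 1.04 (SE 0.51), RN7SL2 by 0.61 (SE 0.44) and RMRP by 1.44 (SE 0.89), all of which include high-dose replicate 2. RN7SK was lowest at the medium dose, where it differed from the low dose by −0.93 (SE 0.53) on the log2 scale.

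Across the 12 libraries, which share the split between vehicle and extract, RN7SL1 and RN7SL2 ran together (Pearson's r of log2 CPM 0.982), as did RN7SK and ENSG00000280614 (0.876) and RN7SK and RPPH1 (0.873). RN7SL2 ran against ENSG00000280614 (−0.890) and hardly with RMRP (−0.222). Low-dose replicate 2 and high-dose replicate 2 were also the pair of highest extract libraries for RN7SK, RMRP, RPPH1 and the summed rDNA copies. For RN7SK these were at 3.73 and 3.61 CPM against 0.783 to 1.41 CPM in the other 7 extract libraries. For RPPH1 they were at 0.845 and 0.896 CPM against 0.172 to 0.537 CPM. For the rDNA sum they were at 617 and 902 CPM against 270 to 375 CPM. Of all tested genes, 2.36% had this pair on top, a pattern noticed after the values were seen. The RN7SL genes did not share it: RN7SL2 was at 77.9 CPM in low-dose replicate 2, between the other low-dose libraries. The rDNA members taken singly did not share it either. Both were highest in low-dose replicate 2 (206 CPM) and medium-dose replicate 1 (158 CPM), with 143 CPM in high-dose replicate 2.

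Per kilobase of annotated length, the order in vehicle was ENSG00000280614 (1071 ± 92.7 CPM per kb), ENSG00000281181 (985 ± 73.6), RN7SL2 (22.5 ± 7.23), RN7SL1 (18.9 ± 5.40), RN7SK (17.2 ± 2.02), RPPH1 (2.89 ± 0.424), RMRP (2.67 ± 1.34) and RN7SL3 (0.0338 ± 0.0585) (SD, n = 3 each). Within their SD the rDNA members overlapped each other, RN7SL2, RN7SL1 and RN7SK overlapped, and so did RPPH1 and RMRP. Reads of the rDNA copies, and of the RN7SL copies, can hardly be told apart, so no order is read among copies of the same RNA.

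Other structured RNAs without a poly(A) tail gave few reads. Of 45 listed small nuclear, small nucleolar, Y, vault and related RNAs, 19 had no count and 2 were tested. BCYRN1, a polymerase III transcript related to 7SL through its Alu domain, was at 17.4 ± 6.58 CPM in vehicle and at 8.67 ± 0.704, 10.8 ± 3.47 and 13.4 ± 6.34 CPM with rising dose (SD, n = 3 each), with adjusted p = 0.424, 0.459 and 0.538 from edgeR's quasi-likelihood test. SNORD3A (U3 RNA) had log2 fold changes of 0.35, 0.54 and 0.17, and neither was a DEG. The mitochondrial rRNAs MT-RNR1 and MT-RNR2 together were at 10978 to 12243 CPM in vehicle, 9424 to 11110 CPM in low-dose, 19115 to 21474 CPM in medium-dose and 117290 to 136420 CPM in high-dose libraries. The members did not share this order of doses. Replication-dependent histone mRNAs, which mostly lack a poly(A) tail, were summed at 23.3 to 29.1 CPM in vehicle and at 22.7 to 23.6 CPM in low-dose libraries. The medium-dose libraries had 19.5 to 22.4 CPM and the high-dose ones 15.7 to 21.4 CPM. Of 9 tested, 1 was called, H2AC6, which fell by 0.80 on the log2 scale (adjusted p = 0.0132 from edgeR) with the high dose. At that dose, 2.93% of all tested genes were called (1.26% higher and 1.68% lower). Whether RNA selection or RNA quality had a part in the members' values was not tested.

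The protein partners of the members were listed by function, and their values were not used to choose the members. The lists were made with earlier results of these data known. A gene was called (a DEG) when its adjusted p was under 0.05 from edgeR's quasi-likelihood test over all 15374 genes and its fold change over 1.5. Of 91 partner and polymerase genes, all tested, 0 were DEGs at any dose, also in DESeq2. Of all tested genes, 0.111% were DEGs at 20 µg/mL (0.065% higher and 0.0455% lower). At 100 µg/mL these shares were 0.676% (0.384% and 0.293%), and at 500 µg/mL they were 2.93% (1.26% and 1.68%). An unadjusted p under 0.05 was reached by 8, 7 and 17 of the 91 genes with rising dose, which are 8.79%, 7.69% and 18.7% of them, against 7.95%, 11.7% and 20.1% of all tested genes. Of the 8, 2 were higher than in vehicle, of the 7, 4 and of the 17, 16. Among all tested genes with such a p, 42.4%, 43.5% and 48.9% were higher. Without the minimum fold change, 3 of the 91 genes passed at the high dose, against 5.77% of all tested genes. The fold changes of all 91 genes lay between −0.505 and 0.422 on the log2 scale at all doses.

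Among the 8 genes for SRP proteins and their receptor, the median log2 fold change was 0.00, 0.01 and 0.17 from the low to the high dose, where the median of all tested genes was within 0.01 of 0. SRP9, which binds the Alu domain of 7SL RNA, was at 298 ± 21.1 CPM in vehicle and 336 ± 124 CPM with the high dose (SD, n = 3; adjusted p = 0.672 from edgeR). SRP68 was at 73.6 ± 1.43 and 81.1 ± 1.98 CPM (adjusted p = 0.182 from edgeR). For SRP68, and for GTF3C3 described below, every extract library lay above every vehicle library, a pattern held by 2.59% of all tested genes. The 7 genes of the 7SK particle and P-TEFb had medians of −0.05, −0.05 and −0.06. MEPCE, which caps 7SK RNA, was at 114 ± 3.15 CPM in vehicle and 110 ± 13.4 CPM at the high dose (adjusted p = 0.770 from edgeR), and CCNT2 had a log2 fold change of 0.13 (adjusted p = 0.463 from edgeR). The 11 genes of RNase P and RNase MRP proteins had medians of −0.13, −0.08 and 0.02. POP1, the largest protein of both enzymes, was at 47.4 ± 3.22 CPM in vehicle and 47.2 ± 2.06 CPM at the high dose, and RPP25 had a log2 fold change of 0.13 (adjusted p = 0.470 from edgeR).

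For polymerase III itself, 18 subunit genes had medians of −0.08, −0.06 and 0.05, and the 19 genes of its factors and regulator −0.04, −0.03 and 0.02. POLR1D, a subunit shared by polymerases I and III, was at 227 ± 15.99 CPM in vehicle and 243 ± 40.2 CPM with the high dose (SD, n = 3; adjusted p = 0.678 from edgeR). GTF3A, the factor for 5S rRNA genes, was at 273 ± 11.9 and 289 ± 63.3 CPM (adjusted p = 0.773 from edgeR). POLR3G, a polymerase III subunit with a close relative in POLR3GL, rose at the high dose from 14.1 ± 0.261 to 19.0 ± 2.51 CPM (log2 fold change 0.42, SE 0.09, adjusted p = 0.0210 from edgeR), below the minimum fold change. GTF3C3, a subunit of the promoter-binding factor TFIIIC, rose from 41.0 ± 2.34 to 49.0 ± 0.417 CPM (log2 fold change 0.26, SE 0.07, adjusted p = 0.0486 from edgeR), also below the minimum fold change.

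For rRNA synthesis, the 13 genes of polymerase I and its factors had medians of 0.03, 0.00 and 0.17, and the 15 rRNA processing genes −0.01, 0.07 and 0.18. TAF1D, a subunit of the polymerase I promoter factor, was at 158 ± 7.10 CPM in vehicle and 192 ± 37.5 CPM at the high dose (adjusted p = 0.184 from edgeR). POLR1B, the second largest subunit of polymerase I, had a log2 fold change of 0.30 (SE 0.08, adjusted p = 0.0547 from edgeR). NPM1 was at 1361 ± 108 CPM in vehicle and 1540 ± 267 CPM at the high dose (adjusted p = 0.418 from edgeR). UTP4, which takes part in making 18S rRNA, rose from 106 ± 3.38 to 129 ± 11.7 CPM (log2 fold change 0.28, SE 0.07, adjusted p = 0.0385 from edgeR), below the minimum fold change. The difference between the members and their partners in fold change was not tested.

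**Figure D4:**
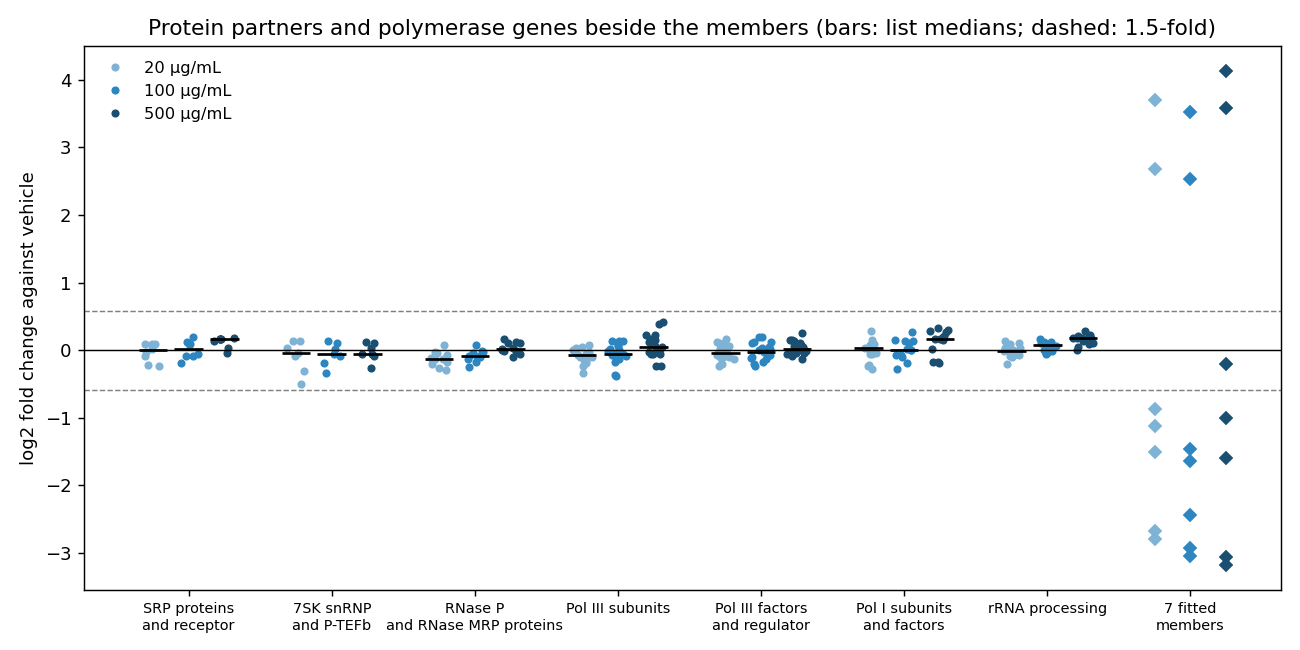
Log2 fold change against vehicle of 91 partner and polymerase genes in 7 lists (points, with black bars at list medians) and of the 7 fitted members (last column) at 20, 100 and 500 µg/mL. Dashed lines mark a 1.5-fold change, and all 91 genes lie within them, whereas of the members RMRP at 500 µg/mL does and the other values lie outside.

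The genes whose log2 CPM ran most like a member were taken, with the members left out, from 10617 tested genes with a mean of at least 5 CPM, by Pearson's r over the 12 libraries, which share the split between vehicle and extract. For RN7SL2 they were KLF10, a transcription factor (r = 0.921), LY6G5B (0.913), SMARCA1, a chromatin remodeller (0.910), LCN2, an iron-siderophore binding protein (0.903), and PLAA (0.894). LY6G5B was at 10.5 ± 0.363 CPM in vehicle and 17.8 ± 1.44, 17.0 ± 1.37 and 15.6 ± 0.867 CPM from the low to the high dose (SD, n = 3 each). For RN7SK the closest was ENSG00000280800 (r = 0.927), then TAOK3 (0.883), HILPDA (0.882), TMEM160 (0.881) and the caspase gene CASP6 (0.868). For ENSG00000280614 they were ENSG00000259891 (r = 0.948), TAOK3 (0.925), ATXN3 (0.912), KCNJ14 (0.904) and CST3, which encodes cystatin C (0.898). ENSG00000259891, a lncRNA, was at 15.3 ± 2.01 CPM in vehicle and 8.24 ± 0.605, 8.48 ± 0.211 and 7.55 ± 0.967 CPM from the low to the high dose. For RMRP they were CBX8, a Polycomb protein (0.919), NKAP (0.900), DECR2 (0.897), CCDC112 (0.895) and ANKRD26 (0.864). KLF10 ranged from 40.9 ± 1.01 CPM in vehicle to 47.6 ± 1.36, 48.3 ± 2.01 and 49.5 ± 3.66 CPM with rising dose.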

How the data were processed

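RNA from 12 libraries of HT29 cells was sequenced as 100 bp paired-end reads after an mRNA library kit. The deposited values are expected counts, which the authors made with FastQC, Trim Galore, STAR and RSEM (1.3.3) from the GRCh38.84 annotation. They are not normalized. Neither the strand setting nor poly(A) selection is given in the sources used here. Values were rounded to integers for the fit. Genes were filtered with filterByExpr, scaled by TMM and tested with edgeR 4.0.16 (R 4.3.3, quasi-likelihood, robust) in 1 fit of the 4 groups, with Benjamini–Hochberg adjustment over 15374 genes for each dose. DESeq2 1.42.0, other scalings and filters, a replicate block and each library left out were alternatives. Log2 CPM used a prior count of 2. Standard errors came from the F statistic. The method was run on simulated data with the same spread for every gene, changes only at the high dose and no deviating library. That run does not cover genes with a wide spread or a library such as high-dose replicate 2.

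The totals, from 15941255 to 33866644, put 1 count at well under 0.1 CPM, so RMRP, RPPH1 and RN7SL3 rest on few reads. Positions and sequences came from GENCODE release 44 and GRCh38, and from RefSeq for the rRNA genes. 93.2% of the gene IDs are in that release. The sequences of the RN7SL genes are not reported here. The members and gene lists were chosen with earlier results of these data known. Named genes were all members, for each partner list the gene with the highest mean and that with the lowest p at 500 µg/mL, other structured RNAs from a mean of 10 CPM, the 3 highest pseudogenes, all neighbours with a count, and the 5 genes most like each of 4 members. SNORD3A, H2AC6, RPS29 and ENSG00000259001 were named after their values were seen.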

Additional observations from a re-analysis of the deposited data

How the results depend on the processing

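Of 410 alternative values for the 21 fold changes of members, 402 moved by less than 1 SD between libraries, 5 moved by more and 3 changed sign. The SD was that of log2 CPM in the 3 libraries of the dose, with high-dose replicate 2 among them. RN7SL1 at the high dose thus counted as within 1 SD (1.38), though it went from 3.58 to 2.38 without that replicate. Leaving out a library of another dose could hardly move a value, so the 402 is no measure of robustness. The sign changes were all of RMRP at the high dose, whose log2 fold change became 0.05 when vehicle replicate 1 was left out, and 0.23 or 0.25 without replicate 1 or 3 of the high dose. Over all libraries left out in turn it ran from −1.35 (without high-dose replicate 2) to 0.25. With at least 10 counts in every library, RMRP and RPPH1 could not be fitted. The 6 members with vehicle apart and the 0 that followed dose were the same by plain library totals and without high-dose replicate 2. Summing 4 rDNA copies, an alternative chosen after seeing the data, gave the largest shift of the rDNA members at the high dose, to −2.45. Leaving high-dose replicate 2 out of the summed rDNA and RN7SL counts was also chosen after seeing the data, and gave −3.09 and 2.43.

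Over all genes, 17, 104 and 451 were DEGs with rising dose. The low-dose count was 34 with no filter, 48 with DESeq2 and 51 with vehicle and 1 dose only. It was between 10 (without vehicle replicate 2) and 109 (without high-dose replicate 2) when single libraries were left out. The medium-dose count was 191 with vehicle and 1 dose only. It was between 52 (without vehicle replicate 2) and 249 (without high-dose replicate 2) when single libraries were left out, with 69 without vehicle replicate 1, and 63 and 59 without medium-dose replicates 1 and 3. The high-dose count was 172 with vehicle and 1 dose only and 887 with no minimum fold change. It was between 310 (without vehicle replicate 2) and 768 (without high-dose replicate 2) when single libraries were left out. Partner genes called stayed at 0 at every dose under the alternatives run, other than 3 at the high dose with no minimum fold change. The causes were not tested.

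With the replicate number as a block (replicate block), 17, 75 and 379 genes were DEGs from the low to the high dose. Libraries of the same number in different groups correlated between −0.50 and 0.37 in their deviations from group means. Those of different numbers correlated between −0.54 and 0.54. With 3 libraries per group these values cannot decide whether the numbers pair the libraries. The lowest totals limit RN7SL3, RMRP and RPPH1 most, whose counts were at most 27 in any library.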
